A study of Mus musculus with 6 samples.

Results

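The Meis, Pbx and Pknox genes encode homeodomain proteins that bind DNA beside Hox proteins. The set described here has 8 genes, Meis1, Meis2, Meis3, Pbx2, Pbx3, Pbx4, Pknox1 and Pknox2, which were found by their gene symbol in the deposited transcript tables. They account for 8 of 52550 genes and 82 of 131100 transcripts, with 37 transcripts from the Meis genes, 24 from the Pbx genes and 21 from the Pknox genes. RNA-seq was made from 6 mouse medulloblastomas, tumours of the cerebellum, of which 3 were labelled wild type and 3 Eed mutant. Eed encodes part of the core of Polycomb repressive complex 2 (PRC2), a histone methyltransferase that keeps many developmental genes silent, and the comparison asks which genes differ with its genotype. The sources used here do not give the mutant allele, the strain, the ages, any Cre driver or how the tumours arose. Whether the tumours are from separate animals is also not stated, and p-values therefore measure the spread between these libraries, which may be technical.

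Hox proteins alone recognise short and common DNA sites. PBX proteins bind next to them and lengthen the site that is read, and MEIS and PKNOX (also called PREP) proteins bind PBX and help to hold it in the nucleus. All belong to the TALE class, named for an extended loop in the homeodomain, which also contains the Tgif and Irx families. In the cerebellum Meis1 is a known factor of granule cells, the lineage from which Hedgehog-driven medulloblastoma arises. Meis2 is better known from limb, heart, neural crest and forebrain development, and Meis1 is a known partner of Hox proteins in leukaemia.

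The classes differ in the helix that reads DNA, and the Meis genes are close enough for the separation of their reads to matter. The coding bases of this helix in GENCODE M21 are shown for the 3 Meis genes and for 1 gene of each other family, with capitals for the bases that differ from Meis2.
Meis2-201: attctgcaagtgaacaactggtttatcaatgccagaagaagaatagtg
Meis1-201: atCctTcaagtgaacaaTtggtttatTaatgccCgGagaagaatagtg
Meis3-201: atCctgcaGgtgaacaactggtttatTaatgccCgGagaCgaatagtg
Pknox1-201: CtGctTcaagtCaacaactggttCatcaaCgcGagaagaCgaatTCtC
Pbx3-202: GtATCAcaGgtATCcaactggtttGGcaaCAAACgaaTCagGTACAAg

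Within these 48 bases Meis1 and Meis3 each differ from Meis2 at 6 positions, Pknox1 at 11 and Pbx3 at 24. Over the 189 bases of the homeobox, 84.1% of bases were equal between Meis1 and Meis2, 82.0% between Meis3 and Meis2, 66.1% for Pknox1 and 50.8% for Pbx3, and the longest equal run between the Meis1 and Meis2 homeoboxes was 21 bases. Kallisto, the program behind these counts, assigns reads by matches of 31 bases at its default setting, and the setting used is not stated. Of the 11989 distinct stretches of 31 bases in Meis2 transcripts, 46 (0.384%) also occur in a transcript of another gene and 4 of these in another of the 8 members. The longest run shared by any Meis1 and any Meis2 transcript was 32 bases, so few stretches of Meis2 could take reads from the far more abundant Meis1.

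Levels per length are given in TPM, transcript abundance per length as a share of the library, which allows genes to be compared with each other. Meis1 was the most abundant member, at 121, 121 and 134 TPM in the wild-type tumours and 95.8, 117 and 105 TPM in the mutants, in the order of the replicate numbers, as throughout. Pbx3 followed at 53.1 to 68.5 TPM in the wild-type tumours and 64.9 to 65.9 TPM in the mutants, and Meis3 at 35.0 to 37.2 and 31.5 to 33.6 TPM. Pbx2 (27.0 to 29.3 and 27.8 to 28.6 TPM) and Pknox1 (27.0 to 30.4 and 25.4 to 28.2 TPM) overlapped each other in both groups and cannot be ordered. The same holds for Pbx4 (11.4 to 13.0 and 7.48 to 10.3 TPM) and Pknox2 (8.12 to 14.3 and 7.58 to 9.76 TPM). Meis2 was lowest in all 6 tumours, at 0.446 to 1.17 TPM in the wild-type tumours and 3.10 to 3.82 TPM in the mutants. Each remaining pair of neighbours in this order was separated in both groups.

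**Figure D1:**
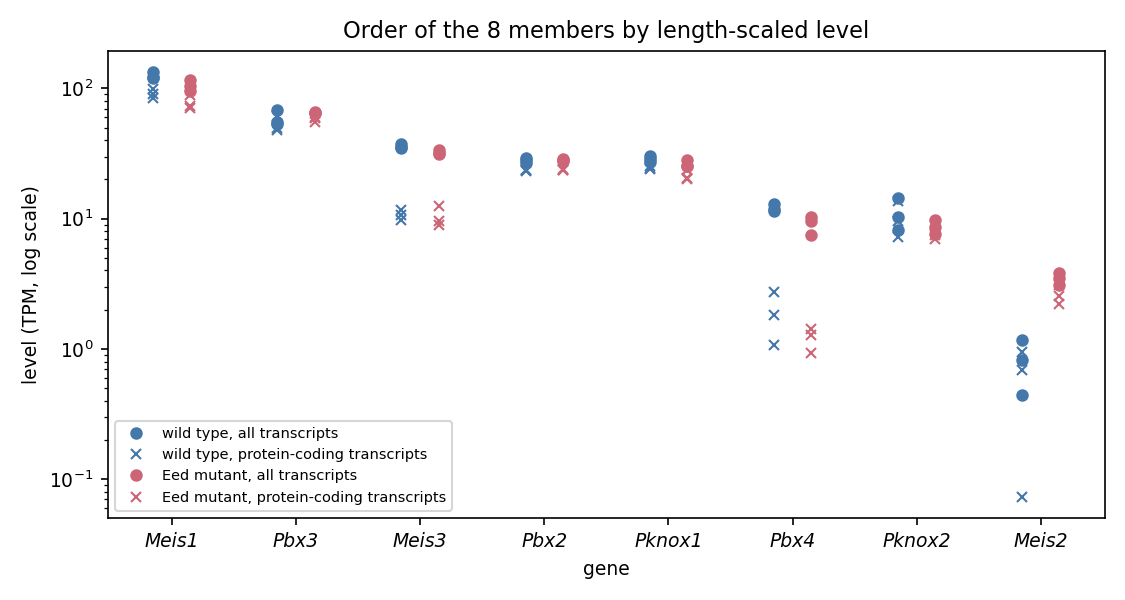
Level of each member in TPM on a log axis, for all its transcripts (dots) and for its protein-coding transcripts alone (crosses), in the 3 wild-type and 3 Eed mutant libraries. Over all transcripts Meis1 is highest and Meis2 lowest. Meis3 and Pbx4 drop when the noncoding transcripts are left out, and coding Pbx4 then lies below coding Meis2 in the 3 mutants.

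Meis2 was the member with the largest difference by Eed genotype. Its estimated counts were 56.1, 13.5 and 35.7 across the wild-type tumours, in the order of their replicate numbers, and 173, 127 and 138 across the mutants. In CPM, counts per 1000000 counts of a library after scaling, the levels were 2.12, 0.510 and 1.36 in the wild-type tumours and 6.65, 4.89 and 5.21 in the mutants. Every mutant thus lay above every wild-type tumour, and wild-type replicate 2 was the lowest of the 6. The means were 1.33 ± 0.805 and 5.58 ± 0.939 CPM (SD, n = 3), a ratio of 4.20, and the log2 fold change was 2.07 (SE 0.441). In edgeR's quasi-likelihood test the unadjusted p was 0.00214 and the p adjusted over all genes was 0.144, so Meis2 did not pass at 0.05. It passed DESeq2 (log2 fold change 2.075, SE 0.422, adjusted p = 0.000137), and over the alternatives the adjusted p ran from 0.000137 to 0.474 and the log2 fold change from 1.32 to 2.71. In bulk tumour RNA, a difference in the number of cells of a type and one in RNA per cell cannot be told apart. All 3 wild-type libraries cleared the expression filter for Meis2, so its place in the test did not depend on the mutants.

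**Figure D2:**
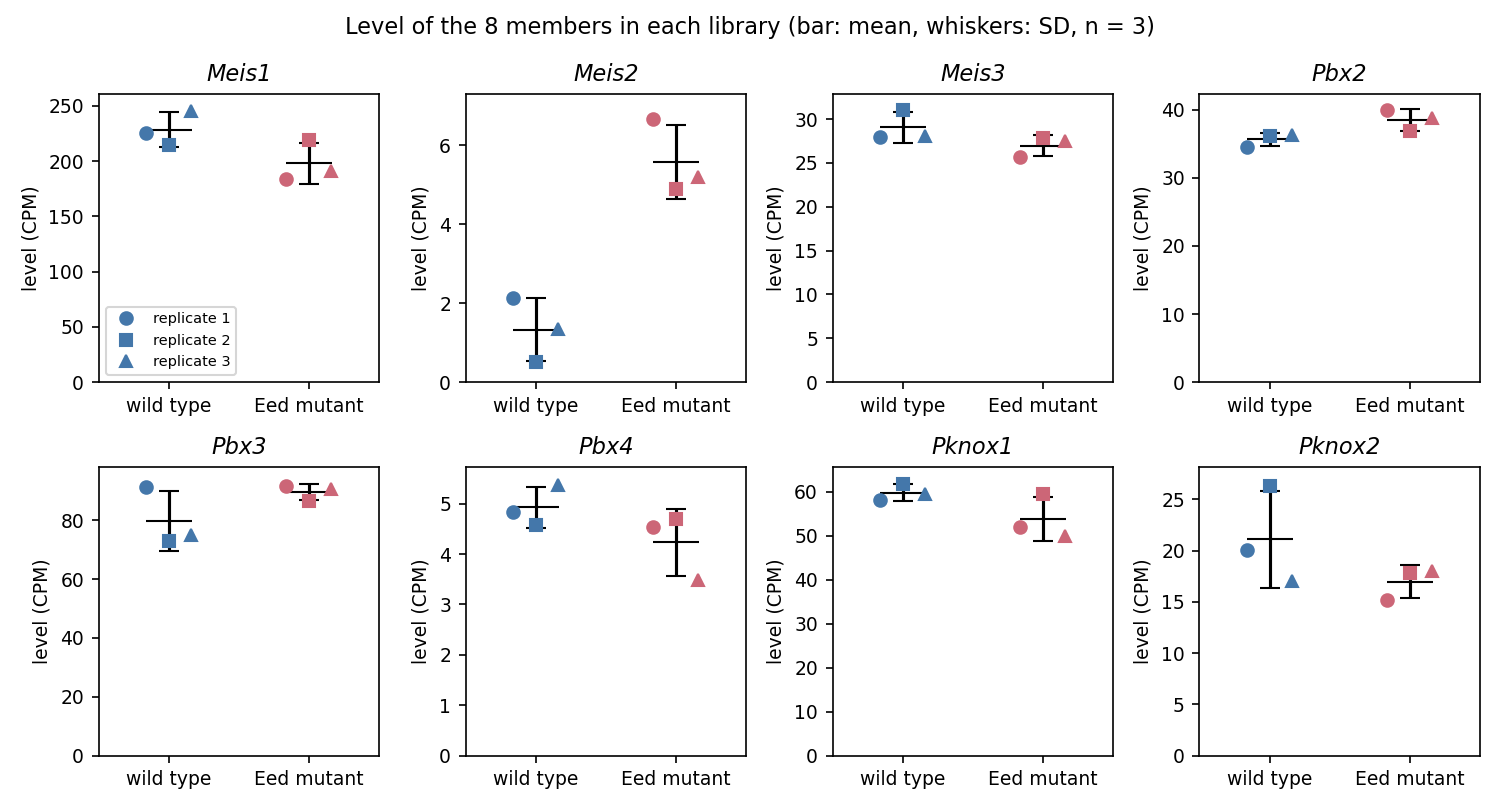
CPM of each member in the 3 wild-type (blue) and 3 Eed mutant (red) libraries, with symbols for the replicate number, a bar for the mean and whiskers for the SD. Meis2 lies between 0.510 and 2.12 in the wild-type tumours and between 4.89 and 6.65 in the mutants, while the remaining 7 genes lie near each other in both groups.

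These calls are read against the whole table. edgeR called 0 of 19145 genes (0%) at an adjusted p of 0.05 (lowest 0.0808), and 18.1% of genes had an unadjusted p under 0.05. Of the 8 members, all of which were tested, 0 passed at the adjusted threshold and 1, Meis2, had an unadjusted p under 0.05. DESeq2 called 1 of 8 members, which was higher in the mutants, where it called 3.00% of 17494 genes higher and 5.31% in either direction. A log2 fold change of at least 2 in favour of the mutants was reached by Meis2 and by 0.428% of all tested genes. Groups did not overlap in CPM for 3 of 8 members against 25.1% of all tested genes. In TPM they did not overlap for 4 of 8 members against 23.7%. These counts rest on 8 genes and are not read as a property of the set. The median log2 fold change was -0.13 over the 8 members beside -0.01 over all tested genes.

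The libraries held nearly equal depth, from 26186236 to 26425111 estimated counts, and all 7 granule progenitor markers were detected, with a summed level of 1877 to 2386 CPM in the wild-type tumours and 2152 to 2492 CPM in the mutants. Groups were apart for 3 of these 7, of which DESeq2 called 1 higher. The summed levels of markers did not overlap between the groups for 5 other cell types. edgeR called 0 markers in each list, as it called 0 of all tested genes, and 25.1% of all tested genes had groups apart. DESeq2 called 9 of 10 skeletal muscle markers higher, beside 3.00% of all genes. It also called 2 of 6 endothelial and 2 of 6 pericyte and smooth muscle markers higher. It called 9 of 10 oligodendrocyte and 2 of 7 Purkinje cell markers lower, beside 2.32%. Lower calls also fell in lists whose sums overlapped between the groups. They were 2 of 7 differentiated granule neuron, 1 of 5 GABAergic interneuron, 1 of 7 microglia and 1 of 6 fibroblast and meningeal markers. Where the sums were apart, they were 8.78 to 29.3 CPM in the wild-type tumours and 72.6 to 397.5 CPM in the mutants for skeletal muscle (groups apart for 10 of 10 markers). They were 107 to 141 and 153 to 162 CPM for endothelium (3 of 6), and 175 to 203 and 223 to 260 CPM for pericytes and smooth muscle (2 of 6). They were lower in the mutants for oligodendrocytes, at 545 to 1526 and 345 to 424 CPM (10 of 10), and for Purkinje cells, at 664 to 1021 and 447 to 618 CPM (2 of 7). Wild-type replicate 2, the lowest in Meis2 and the highest in Pknox2, had the highest oligodendrocyte and Purkinje cell sums. In mutant replicates 1 to 3 the muscle sum was 142, 72.6 and 397.5 CPM and Meis2 was 6.65, 4.89 and 5.21 CPM. Both were lowest in mutant replicate 2, and they were highest in different replicates. None of these lists had a marker at 0 in all libraries, and their part in the Meis2 difference was not tested.

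Meis2 was a small part of the Meis RNA. It made up 0.742%, 0.281% and 0.482% of the summed TPM of the 3 Meis genes in the wild-type tumours and 2.91%, 2.04% and 2.49% in the mutants. The sum itself was 158, 159 and 170 TPM in the wild-type tumours and 131, 152 and 142 TPM in the mutants, so in TPM each mutant lay below each wild-type tumour. In CPM the sums were 255, 246 and 275 against 216, 252 and 224, and mutant replicate 2 lay above wild-type replicate 2. Meis1 was 104 to 272 times as abundant as Meis2 in the wild-type tumours and 25.1 to 37.7 times in the mutants.

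Meis2 (ENSMUSG00000027210.20) lies at chr2:115863064-116065839 on the minus strand of GRCm38, and GENCODE M21 places no other gene within it. Its 19 annotated transcripts include 6 that code for protein. The coding transcripts differ in whether an internal exon starts 21 bases early, at chr2:115867359-115867379, in whether a further exon of 95 bases at chr2:115866810-115866904 is kept, and in which of 2 first exons they use. The optional 21 bases follow the homeobox, and they are shown in capitals with 30 coding bases on each side as transcript Meis2-201 reads, above the same place in Meis2-203, which lacks them.
Meis2-201: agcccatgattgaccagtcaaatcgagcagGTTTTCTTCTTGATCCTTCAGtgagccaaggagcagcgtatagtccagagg
Meis2-203: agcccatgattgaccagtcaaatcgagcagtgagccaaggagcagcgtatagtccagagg

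Most of the Meis2 difference lay in the coding transcripts. Together they had 41.3, 3.23 and 31.2 estimated counts in the wild-type tumours and 152, 117 and 110 in the mutants, or 75.7 against 379 over the 3 libraries of each group. In TPM the coding level was 0.944, 0.0734 and 0.687 in the wild-type tumours and 3.08, 2.54 and 2.22 in the mutants. A transcript with a retained intron, Meis2-213, had 12.9, 8.03 and 3.88 counts in the wild-type tumours and 9.75, 7.06 and 8.69 in the mutants, so its groups overlapped and its sums were 24.8 and 25.5. In wild-type replicate 2 this transcript held more counts than all coding transcripts together. With coding transcripts alone, an alternative chosen after seeing the data, the log2 fold change of Meis2 was 2.33 and the adjusted p in edgeR was 0.153.

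The mutants did not share 1 mixture of Meis2 transcripts. Coding transcripts with the 21 bases had 133 and 78.3 estimated counts in mutant replicates 1 and 3, against 0.0586 in mutant replicate 2 and at most 0.00763 in each wild-type library. Those without the 21 bases had 18.6 and 31.2 counts in mutant replicates 1 and 3 and 117 in mutant replicate 2, and 41.2, 3.23 and 31.2 in the wild-type tumours. Rounded to whole counts, transcripts with the stretch were 133 of 152 coding counts in mutant replicate 1 (87.5%, exact 95% binomial interval 81.2% to 92.3%) and 78 of 110 in mutant replicate 3 (70.9%, 61.5% to 79.2%). They were 0 of 118 in mutant replicate 2, which by the limit of 3 counts of the total allows a share of up to 2.54%, and 0 of 41, 0 of 3 and 0 of 31 in wild-type replicates 1 to 3. The wild-type counts allow shares of up to 7.32%, 100% and 9.68%, and the exact intervals of these libraries end at 8.60%, 70.8% and 11.2%, with 3.08% for mutant replicate 2. Wild-type replicate 2, with 3 counts, is too thin to place. These intervals and limits treat every rounded coding count as a read that shows whether the 21 bases are present. Most of the sequence of these transcripts cannot show it, so the intervals and limits are too narrow. Sequence unique to either kind is short: 48 stretches of 31 bases occur only in 2 or more transcripts with the 21 bases and 27 only in 2 or more without them. The number of reads that touched them was not analysed here, and the error of the estimation step is not in the files used.

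**Figure D3:**
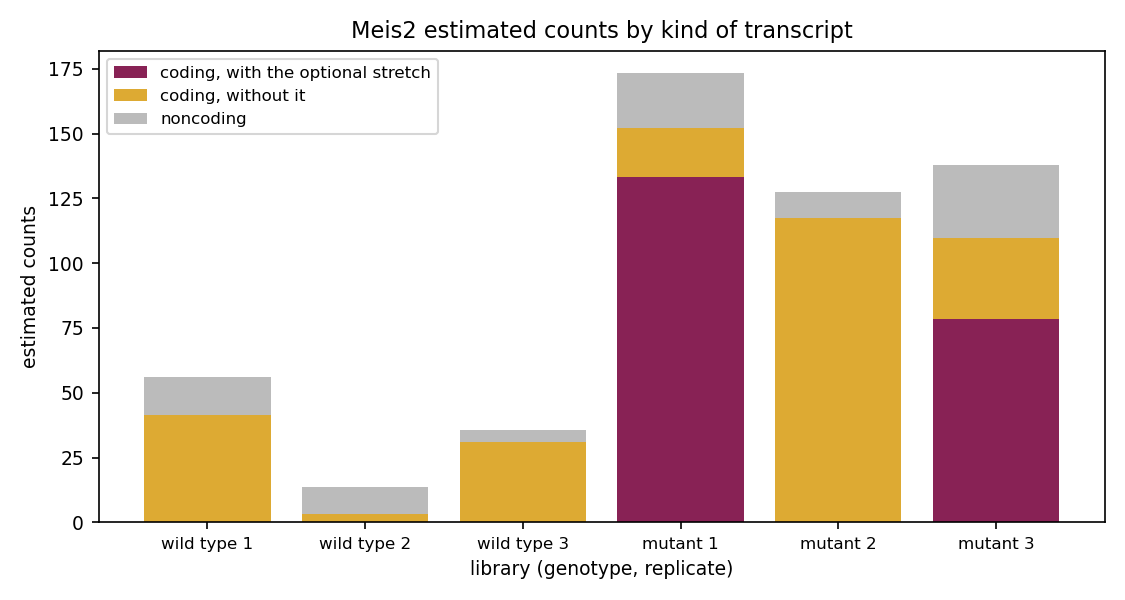
Estimated counts of Meis2 in each library, stacked by kind of transcript: coding with the optional 21 bases, coding without them, and noncoding. Transcripts with the stretch fill most of the column in mutant replicates 1 and 3 and are absent from the estimate in mutant replicate 2, although all 3 mutant columns are taller than the wild-type ones.

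The first exons also differed between libraries. The 4 coding transcripts that begin at the upstream first exon had 28.6, 0 and 5.58 counts in the wild-type tumours and 126, 82.9 and 99.0 in the mutants. The pair that begins at the downstream first exon had 12.7, 3.23 and 25.6 counts in the wild-type tumours and 25.8, 34.6 and 10.5 in the mutants. Upstream starts were thus higher in every mutant than in every wild-type library, and downstream starts overlapped. Transcripts with the optional exon of 95 bases had 16.5, 3.23 and 31.2 counts in the wild-type tumours and 88.4, 66.8 and 57.8 in the mutants, 52.8% to 58.1% of the coding counts in each mutant. The single Meis2 transcripts were too thin to test one by one: 2 of 19 cleared the filter on low counts.

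The remaining Meis genes differed little. Meis1 (chr11:18879817-19018985, minus strand) had 225, 214 and 245.5 CPM in the wild-type tumours and 184, 219 and 191.5 CPM in the mutants. Mutant replicate 2 lay within the wild-type range in CPM, and in TPM the groups did not overlap. The means were 228 ± 15.8 and 198 ± 18.5 CPM (SD, n = 3), with a log2 fold change of -0.20 (SE 0.0878, edgeR adjusted p = 0.279), and the difference stayed below 0 under all 16 alternatives. Meis1 shares 17.6% of its stretches of 31 bases with other genes, of which the largest part is Gm37818, an annotated gene within Meis1 on the same strand at 11.1 to 16.4 CPM. Gm16140, on the opposite strand at 1.33 to 1.85 CPM, could not be told apart from Meis1 where they overlap if the counting ignored strand, which is not stated. Meis3 (chr7:16175090-16186504, plus strand) had 28.0, 31.1 and 28.1 CPM in the wild-type tumours and 25.6, 27.8 and 27.5 CPM in the mutants. Its groups did not overlap, but they were nearly in contact, and the log2 fold change was -0.11 (SE 0.0804, edgeR adjusted p = 0.511). It was -0.06 without wild-type replicate 2 and -0.07 without mutant replicate 1.

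Much of the Meis3 RNA came from transcripts that do not code for protein. Only 38.03% of Meis3 counts over the 6 libraries fell on its coding transcripts, and the leading transcript, Meis3-202, has a retained intron and 37.1% of the counts. Coding Meis3 stood at 11.7, 9.72 and 10.7 TPM in the wild-type tumours and 8.998, 12.6 and 9.55 TPM in the mutants, so the coding level overlapped between the groups. With coding transcripts alone the sign turned, to a log2 fold change of 0.04. Meis1 had 83.9% of its counts on coding transcripts. The noncoding Meis1-203 held 14.8% of its counts, with 834, 941 and 885 in the wild-type tumours and 692, 754 and 867 in the mutants.

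Among the Pbx genes, Pbx3 (chr2:34171457-34373142, minus strand) had 91.3, 73.0 and 74.9 CPM in the wild-type tumours and 91.6, 86.4 and 90.5 CPM in the mutants. The 3 mutants were close together, and wild-type replicate 1 lay among them. Its log2 fold change was 0.17 (SE 0.0943, edgeR adjusted p = 0.385), and 0.27 without wild-type replicate 1. Pbx2 (chr17:34591266-34597400, plus strand) had 34.5, 36.1 and 36.3 CPM in the wild-type tumours and 39.9, 36.8 and 38.8 CPM in the mutants. These groups did not overlap in CPM, but the mean TPM was 28.1 in both groups, and on the log2(TPM + 1) scale the difference was 0.003. Its log2 fold change in edgeR was 0.11 (SE 0.0674, adjusted p = 0.415). Pbx2 overlaps the neighbouring gene Gpsm3 at its start, with 198 of its 3632 stretches of 31 bases in common.

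Pbx4 (chr8:69832491-69872292, plus strand) had 128, 121 and 141 counts in the wild-type tumours and 118, 122 and 92.0 in the mutants. It was the thinnest member after Meis2 in the wild-type tumours, and in each mutant it had fewer counts than Meis2. Its levels were 4.83, 4.58 and 5.36 CPM in the wild-type tumours and 4.53, 4.69 and 3.48 CPM in the mutants, with a log2 fold change of -0.22 (SE 0.172, edgeR adjusted p = 0.525). The value was -0.10 without mutant replicate 3, the lowest library. Coding transcripts held 27.8% of Pbx4 counts, the lowest share of the 8 genes, and coding Pbx4 stood at 1.07 to 2.72 TPM in the wild-type tumours and 0.925 to 1.42 TPM in the mutants. The low coding share puts coding Pbx4 below the coding level of Meis2 in every mutant, although its total TPM was higher.

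The Pknox genes were lower in mean, and neither passed. Pknox1 (chr17:31564734-31607693, plus strand, in a later version of the gene model than the one in the files) had 58.1, 61.9 and 59.5 CPM in the wild-type tumours and 52.0, 59.6 and 50.1 CPM in the mutants. Mutant replicate 2 lay within the wild-type range, and the log2 fold change was -0.15 (SE 0.0817, edgeR adjusted p = 0.367). Pknox2 (chr9:36890982-37147407, minus strand) had 20.0, 26.2 and 17.0 CPM in the wild-type tumours and 15.1, 17.9 and 17.96 CPM in the mutants. The log2 fold change was -0.31 (SE 0.169, edgeR adjusted p = 0.368), and it was -0.13 without wild-type replicate 2, the highest library. That library also differed in its Pknox2 transcripts: Pknox2-201 had 623 counts there against 219 to 360 in the remaining 5 libraries, and Pknox2-202 had 31.4 against 128 to 175.

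**Figure D4:**
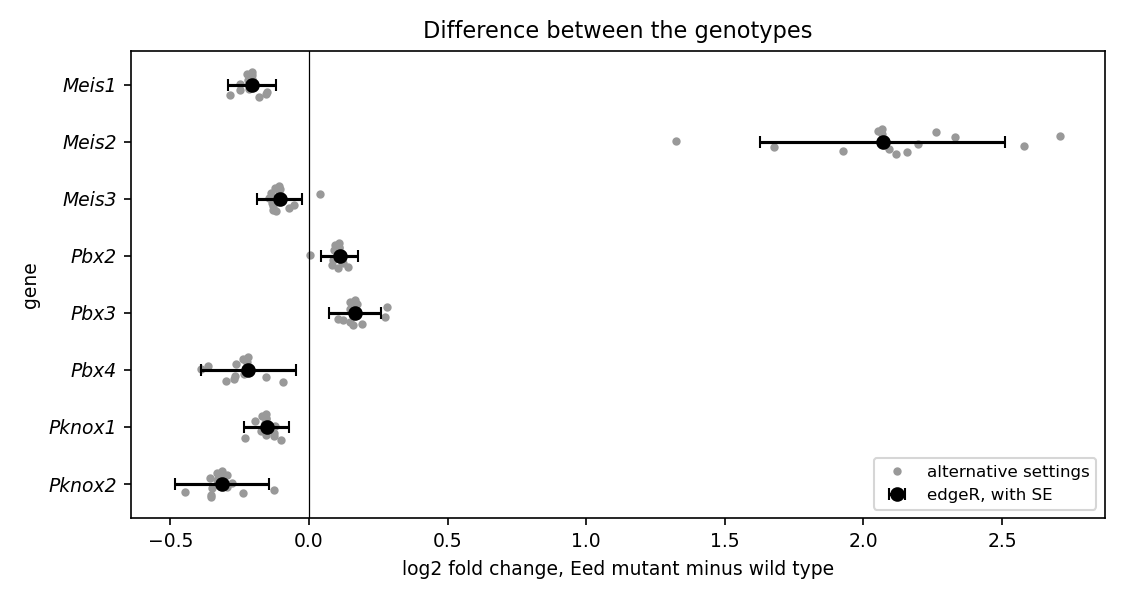
Log2 fold change of each member, Eed mutant minus wild type, with the edgeR estimate and its SE (black) and the values under 16 alternative settings (grey). All Meis2 values lie between 1.32 and 2.71, and the edgeR estimates of the remaining members lie between -0.31 and 0.17.

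The mixture of transcripts was compared for the leading transcript of each gene, 8 tests in all. For Meis2 the leading transcript over the 6 libraries, Meis2-201, leads through mutant replicates 1 and 3, so its difference follows from how it was chosen and is a description only. Its share of gene counts was 0.005%, 0% and 0% in the wild-type tumours and 35.7%, 0.006% and 26.6% in the mutants, where mutant replicate 2 was like the wild-type libraries. For the remaining 7 genes the lowest p was 0.2 (exact two-sided permutation test, adjusted p = 0.64 over the 8), and with 3 against 3 libraries 0.1 is the smallest p that this test can give. Meis1-201 held 58.7% ± 1.96 of the counts of its gene in the wild-type tumours and 57.6% ± 3.40 in the mutants (SD, n = 3), and Pbx3-202 held 73.9% ± 2.79 and 71.9% ± 4.33. Pknox1-201 held 84.2% ± 3.49 and 88.0% ± 1.88. Pknox2-201 held 70.5% ± 18.3 and 59.0% ± 3.03, with 89.9% in wild-type replicate 2, and the difference went from -11.5 to -1.77 percentage points without that library. In the fit per transcript 37 of 82 member transcripts were tested and 0 passed edgeR at an adjusted p of 0.05, as did 0 of 50890 transcripts (0%), where the lowest was 0.214. DESeq2 called 0 of the member transcripts. Meis1-205, with 0.538% of Meis1 counts, was the 1 member transcript with an unadjusted p under 0.05, against 9.81% of all transcripts. It had 47.8, 34.7 and 34.9 counts in the wild-type tumours and 17.9, 23.2 and 22.7 in the mutants. Groups did not overlap for 4 of the 37, Meis1-205, Meis1-206, Meis3-206 and Pknox2-214, all lower in the mutants, against 17.5% of all transcripts. These 4 are named because of their values.

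Of the other TALE homeobox genes, the Irx and Tgif families and Mkx, 8 of 9 had enough counts to test. edgeR called 0 of them, and the unadjusted p was under 0.05 for 4, beside 18.1% of all genes. DESeq2 called 4 higher in the mutants and 0 lower, beside the 3.00% and 5.31% given above, and gave no adjusted p for Irx6. Mkx, a factor of tendon development, was at 0.834 ± 0.176 CPM in the wild-type tumours and 2.00 ± 0.237 CPM in the mutants (SD, n = 3), a log2 fold change of 1.26 (edgeR adjusted p = 0.130, DESeq2 adjusted p = 0.0132). Irx2 was at 5.66 ± 0.525 and 11.9 ± 2.77 CPM, a log2 fold change of 1.07 (edgeR adjusted p = 0.130, DESeq2 adjusted p = 0.000126). Irx1 was at 4.59 ± 0.374 and 8.44 ± 2.19 CPM, a log2 fold change of 0.88 (edgeR adjusted p = 0.151, DESeq2 adjusted p = 0.00839). The median log2 fold change of the 8 was 0.56, and groups did not overlap for 7 of them against 25.1% of all genes. The counts for this list rest on 8 genes and are not read as a property of it.

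The Hox genes, which encode the DNA-binding partners of these cofactors, had low counts. Summed over 39 Hox genes, the level was 2.30, 2.64 and 1.94 CPM in the wild-type tumours and 12.6, 8.18 and 15.2 CPM in the mutants, so every mutant lay above every wild-type tumour. Meis2 was highest in mutant replicate 1 and the Hox sum in mutant replicate 3, and among the mutants both were lowest in replicate 2. Hoxd12, Hoxa11 and Hoxd1 were at 0 in all libraries. Of the 7 Hox genes with enough counts to test, edgeR called 0. DESeq2 called 3 higher, Hoxa7, Hoxb3 and Hoxb8, beside 3.00% of all genes. It gave no adjusted p for the remaining Hoxa2, Hoxd8, Hoxd9 and Hoxc4. Most of the 7 cleared the filter through the mutants, so the count is no support. Hoxb8 had 0 CPM in each wild-type tumour and 1.23, 1.31 and 2.12 CPM in the mutants. Hoxb3 was at 0.113, 0 and 0.0401 CPM against 1.46, 0.638 and 1.36 CPM, and Hoxa2 at 0.0755, 0.0379 and 0.0760 CPM against 0.384, 0.576 and 0.794 CPM.

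The RNA of 10 genes for proteins that bind, degrade or work with PBX and MEIS had a median log2 fold change of 0.06. Of these, 0 passed edgeR, as for all genes, and 0 passed DESeq2, beside 5.31% of all genes. An unadjusted p under 0.05 was reached by 0, beside 18.1%, and groups did not overlap for 0, beside 25.1%. These counts rest on 10 genes and are not read as a property of the list. Cul4b, a scaffold of the ubiquitin ligase that acts on MEIS2 through Crbn, had the lowest p of the list, at 80.3 ± 5.77 and 87.8 ± 3.21 CPM (SD, n = 3; log2 fold change 0.13, edgeR adjusted p = 0.378). Ddb1, the adaptor of that ligase, and Cul4a, another scaffold, had log2 fold changes of 0.11 and 0.09. In the list of granule lineage genes tied to Meis1, edgeR called 0 of 10, 2 had an unadjusted p under 0.05 in each direction, and DESeq2 called 2 lower, Smad9 and Bmp4, beside 18.1% of all genes with an unadjusted p under 0.05 and 2.32% called lower by DESeq2. Smad9, a transcription factor of BMP signalling, was at 12.6 ± 0.253 and 9.13 ± 0.693 CPM (log2 fold change -0.46, edgeR adjusted p = 0.151, DESeq2 adjusted p = 0.0257). Bmpr1a, a BMP receptor, was at 163.9 ± 15.5 and 199.7 ± 11.4 CPM (log2 fold change 0.28, edgeR adjusted p = 0.184). Bmp4, a BMP ligand, was at 1.92, 4.16 and 1.14 CPM in the wild-type tumours and 0.576, 0.578 and 1.13 CPM in the mutants, where the groups were almost in contact. Pax6, a granule cell factor that Meis1 is known to control, was at 364 ± 71.2 and 290 ± 29.3 CPM with overlapping groups (log2 fold change -0.33, edgeR adjusted p = 0.306). Atoh1, a factor of granule progenitors, was at 116, 75.3 and 127 CPM in the wild-type tumours and 172, 172 and 137 CPM in the mutants (log2 fold change 0.59, edgeR adjusted p = 0.202). Its mean was higher in the mutants and that of Pax6 lower. In the wild-type tumours Pax6 was at 281.9, 405.0 and 405.5 CPM, nearly equal in replicates 2 and 3. Of these, replicate 2 was the lowest in Atoh1 and replicate 3 the highest. A relation between Atoh1 and Pax6 was not tested. Both are named after their values were seen.

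The genes whose levels followed Meis2 most closely over the 6 libraries were Ror2, a receptor for Wnt5a (Pearson r 0.998 on log2 CPM), Nol10 (0.998), Eif3b, a subunit of translation initiation factor eIF3 (0.996), Ola1 (0.995) and Cenpq, a centromere protein (0.994). Ror2 was at 17.5, 9.92 and 14.0 CPM in the wild-type tumours and 28.1, 23.6 and 24.9 CPM in the mutants. With 6 points that share library and genotype, 779 of 11649 genes reached an r of at least 0.9, so these names describe the pattern and nothing more.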

How the data were processed

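Estimated counts and TPM per transcript were made by the authors with kallisto 0.43.1, per the submitters' processing notes, which name GRCm38 and mm10, and were deposited as 1 file per library. TPM values in the deposited files are scaled for length and library total. The GENCODE release, strand and read length are not given in the sources used here. Estimated counts were summed per gene, rounded and tested with edgeR 4.0.16 (TMM, filterByExpr, quasi-likelihood F-test) in R 4.3.3 over 19145 genes, and likewise over 50890 transcripts, with Benjamini-Hochberg adjustment at 0.05. The SE of a log2 fold change is its size over the square root of F. CPM are counts over TMM-scaled library sizes, and 3 counts correspond to 0.113 to 0.115 CPM. Alternatives used DESeq2 1.42.0, limma 3.58.1 (voom, and trend on log2(TPM + 1)), RLE or library size scaling, other filters and leaving out each library. Others added a term for the replicate number (the replicate block) or for a code in the deposited names. The meaning of that code is not given. On simulated data with known changes, every tool made a larger share of false calls than the threshold sets, and DESeq2 the largest. The simulation was a single draw per level that used edgeR's own estimates of spread, so it does not rank the tools on the real data. Coordinates and sequences come from GENCODE M21 (GRCm38), matched by identifier. Named transcripts hold at least 10% of their gene's counts or are described for a stated reason, and likeness to Meis2, the member with the widest range, used 11649 coding genes with a mean of at least 5 CPM. List genes named are the up to 3 with the lowest p where edgeR called none. The members and lists were chosen with earlier results of these data known. The replicate numbers are not known to pair the samples, and the main fit used no pairing. Deviations of same-numbered libraries correlated at 0.247, 0.11 and -0.142, which with 3 libraries per group does not decide the question.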

Additional observations from a re-analysis of the deposited data

How the results depend on the processing

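The direction held under all 16 alternatives for 7 of the 8 members, and for Meis3 it turned with protein-coding transcripts only, to 0.039 (log2). Meis2 passed at an adjusted p of 0.05 with DESeq2 (2.075, adjusted p = 0.000137) and with the replicate block (2.20, adjusted p = 0.0491), and not under the other 14, so the number of members called was 1 with each of these and 0 elsewhere. Leaving out single libraries gave 0 members called and 0 to 9 genes called, and Meis2 values of 1.68 to 2.58. Over all genes, where edgeR called 0 and 3459 had an unadjusted p under 0.05, DESeq2 called 929, limma-voom 1, edgeR without a filter on low counts 3, and with the replicate block 273. Without wild-type replicate 2 the count was 4, and without mutant replicate 2 it was 9. The cause was not tested. In deviations from the group means, 3 of 6 libraries correlated best with the library of their own number in the other group. Same-numbered libraries are not known to share an animal or a batch. Member transcripts called stayed at 0 in every setting run. Among the leading transcript shares, the difference for Pknox2-201 went from -11.5 to -1.77 percentage points without wild-type replicate 2, that for Meis2-201 from 20.8 to 13.3 without mutant replicate 1 and to 31.2 without mutant replicate 2, and that for Pknox1-201 from 3.77 to -0.27 percentage points with shares of TPM. Meis2 is thin in the wild-type libraries, with 13.5 to 56.1 counts.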
